A study of Homo sapiens with 36 samples.

Results

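The baseline of a CRISPR line was examined here: untreated MIA PaCa-2 cells that carry a guide RNA against HBS1L were compared with untreated MIA PaCa-2 cells that carry a control guide, both collected at 48 h. The comparison rests on 6 of the 36 libraries of the series, 3 of each line, and they were chosen by their labels alone. MIAPACA-2 is a human pancreatic cancer line, and every group carried a doxycycline-inducible Cas9 with its guide, so that the doxycycline (dox) that switches the nuclease on was absent from both groups. The guides in the series are HBS1L, PELO and NTC (the control), and each line was sampled at 48 and 96 h with and without 2 µg/mL dox, in 3 libraries per group. All cells grew in RPMI with tetracycline-free serum, and polyA RNA was sequenced. The labels give the guide as the only difference between the 2 untreated groups. Whether a line is 1 clone or a pool, and whether the 3 libraries came from separate cultures, is not given in the sources used here, so the p-values measure the spread between these libraries, which may be technical. The library numbers of the 48 h and the 96 h samples form separate blocks, and the labels name no batch. Time and any batch that follows these numbers cannot be told apart.

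HBS1L is a GTPase that works with PELO to split ribosomes stalled at the end of a broken message or on a message without a stop codon. The SKI complex threads such messages into the RNA exosome, which degrades them from the 3′ end. Stalled or collided ribosomes can also switch on kinases of the integrated stress response, which raises ATF4 and its targets for amino acid supply. The comparison of untreated lines shows how far the cultures differed with no induced knockout.

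The 6 libraries held from 46220395 to 58166548 counts. Levels are given as CPM, the count of a gene scaled to a common library size after normalization by the trimmed mean of M values (TMM), and differences as the log2 ratio of the HBS1L line to the control line, with the standard error of the fit. A gene was called when the Benjamini-Hochberg adjusted p of edgeR's quasi-likelihood test was under 0.05. The keratins KRT8, KRT18 and KRT19 and vimentin (VIM) were abundant in both lines, from 193 to 8461 CPM. The epithelial genes EPCAM and CDH1 had at most 3 counts in any library of the series, and so did the leukocyte gene PTPRC and the endothelial genes PECAM1 and KDR. Other markers of these kinds were present. The endothelial gene CDH5 was at 35.3 CPM in the control line and 23.3 CPM in the HBS1L line. Leukocyte markers summed to between 26.0 and 34.6 CPM in the 6 libraries. Counts of CDKN2A, MTAP and FOCAD on chromosome 9 also stayed at or under 2 in every library.

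HBS1L itself (ENSG00000112339, GRCh38 chr6:134960378-135103056, minus strand, GENCODE 29) stood at 123.1, 122.1 and 124.7 CPM in the control libraries and at 107.1, 103.6 and 104.9 CPM in the HBS1L libraries. All 3 HBS1L libraries lay under all 3 control libraries, although neither group had received dox. The difference was −0.23 ± 0.03 (adjusted p 6.46e-07). At 96 h the control libraries held 140.4, 143.9 and 144.0 CPM and the HBS1L libraries 110.3, 112.9 and 109.0 CPM, a difference of −0.37 ± 0.03 (adjusted p 1.63e-09). With dox at 48 h the same gene was at a mean of 135 CPM in the control line and 36.2 CPM in the HBS1L line, so the untreated HBS1L line lay far nearer to the control line than to its own dox-treated level. HBS1L has a longest transcript of 7163 bases, and long transcripts were lower in the HBS1L line in general. With library offsets that remove the trend with transcript length, the 48 h difference was −0.03 ± 0.04 (adjusted p 0.650), while the 96 h difference was −0.41 ± 0.04 (adjusted p 9.62e-08).

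PELO (ENSG00000152684, chr5:52787940-52804046, plus strand), the partner that enters the empty site of the ribosome, was at 26.5, 27.8 and 28.3 CPM in the control libraries and 30.1, 28.0 and 26.3 CPM in the HBS1L libraries. The groups overlapped, and the difference did not pass the test (0.03 ± 0.05, adjusted p 0.705).

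**Figure D1:**
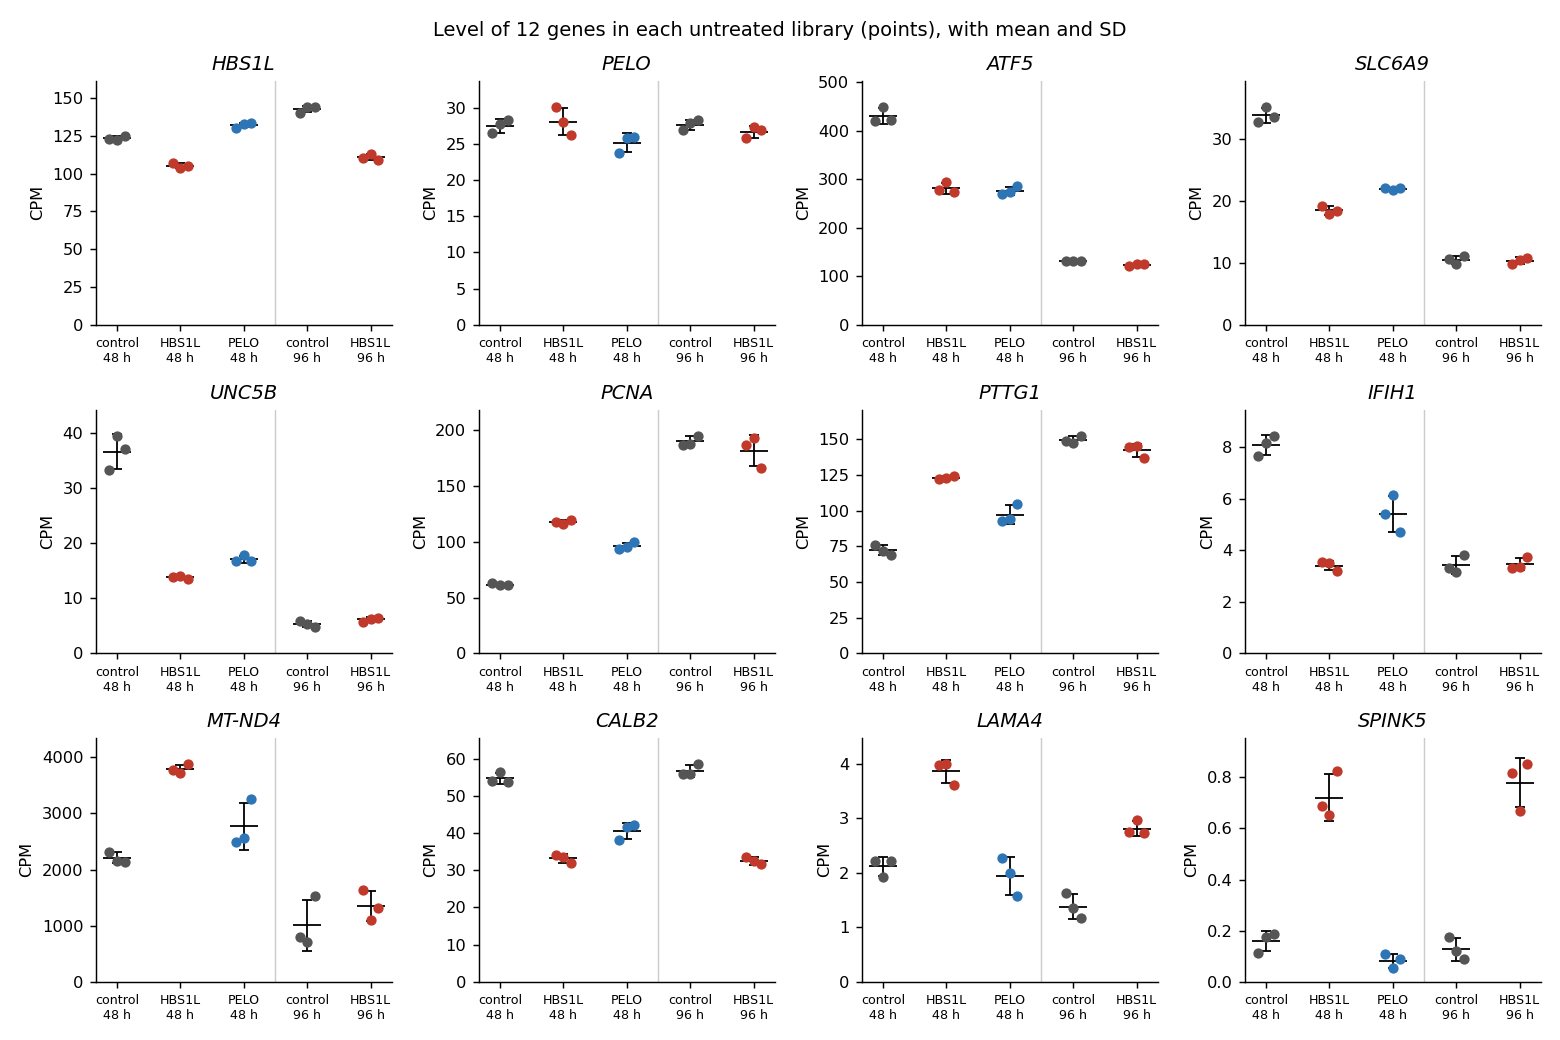
CPM of 12 genes (vertical axes, each from 0) in the untreated libraries of the control line (grey), the HBS1L line (red) and, at 48 h, the PELO line (blue). Points are single libraries, the long bar is the mean and the whiskers are the SD of 3 libraries. ATF5, SLC6A9, PCNA, PTTG1, UNC5B and IFIH1 are called at 48 h and not at 96 h, while CALB2, LAMA4 and SPINK5 keep their difference.

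Across the transcriptome the 2 untreated lines differed widely but mostly by small amounts at 48 h. Of 20767 genes tested, 7874 (37.9%) were called, 3887 (18.7%) of them higher in the HBS1L line and 3987 (19.2%) lower. The median absolute log2 difference over all genes was 0.21. A difference of at least 1.5-fold was found for 1047 genes (5.04%). At least a 2-fold difference was found for 263 genes (1.27%), 111 of them higher (0.535%) and 152 lower (0.732%). At 96 h the same 2 lines differed at 28 genes (0.135%), 18 of them higher (0.0867%) and 10 lower (0.0482%), with a median absolute difference of 0.087, and 2120 genes (10.2%) had an unadjusted p under 0.05 at that time. The count of 28 was 12 without HBS1L replicate 3, 13 without control replicate 2 and 17 without HBS1L replicate 1. The difference between the lines itself changed between the times for 6193 genes (29.8%), 3149 upward at 48 h (15.2%) and 3044 downward (14.7%). With length offsets that count was 4686.

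**Figure D2:**
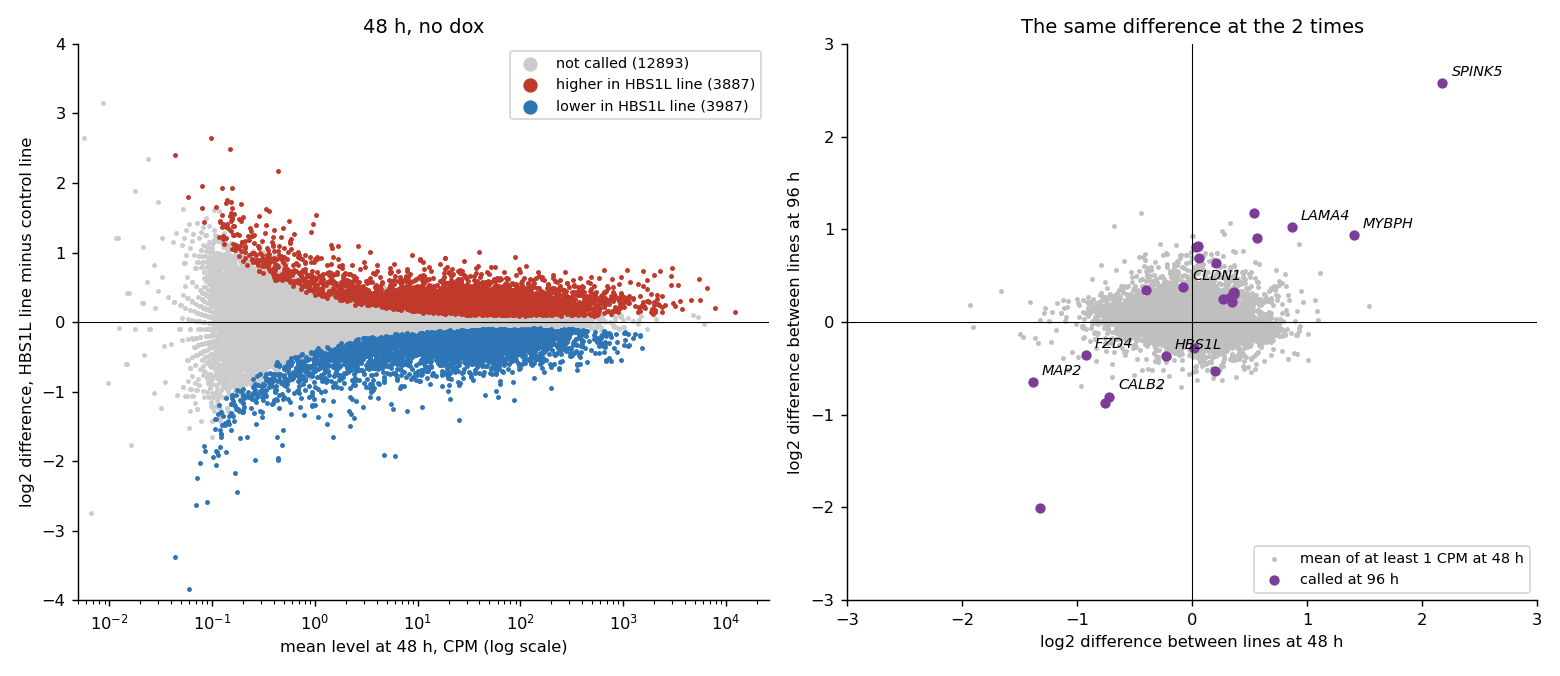
Left, log2 difference of the HBS1L line from the control line at 48 h (vertical axis) against mean CPM of the 6 libraries (log axis), with called genes coloured. Right, the difference at 96 h against that at 48 h for genes of at least 1 CPM (grey) and the genes called at 96 h (purple). Of the genes, 7 lie outside the axes on the left and 3 of those called at 96 h on the right, where the axes end at a log2 difference of 4 and 3. Called genes lie mostly within a 2-fold difference on the left, and on the right most of the 25 purple points lie in the quadrants of equal sign.

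The largest rises among genes of at least 1 CPM whose libraries did not overlap (36.5% of all tested genes were called with no overlap) included APLN, which encodes the peptide apelin. APLN was at 0.604, 0.564 and 0.390 CPM in the control libraries and 1.45, 1.61 and 1.51 CPM in the HBS1L libraries (1.54 ± 0.20, adjusted p 1.31e-07). BCYRN1, a short noncoding RNA, rose by 1.01 ± 0.13, from 26.5 ± 3.8 to 53.2 ± 6.9 CPM (SD, n = 3). The centromere gene CENPW (0.93), the replication genes PCNA (0.93) and GINS2 (0.92), the matrix protease MMP3 (0.93) and CSRP2 (0.91) were also among the 12 largest, as was the histone H4C3 (1.01, adjusted p 0.0211), whose call was lost without HBS1L replicate 2 (0.65), without control replicate 1 (0.84) and with length offsets (0.78). The antisense and long noncoding genes ATP2C2-AS1, LINC01764, PRR7-AS1 and ATP2A1-AS1 completed them with APLN, and for 3 of these 4 between 42% and 73% of the exon bases overlap another gene. Whether reads were counted by strand is not given in the sources used here, so their reads cannot be told apart from those of the overlapping genes.

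KLHDC7B showed the largest fall among called genes with a symbol and at least 1 CPM whose libraries did not overlap. It was at 8.73, 10.6 and 9.28 CPM in the control libraries and 2.78, 2.44 and 2.31 CPM in the HBS1L libraries (−1.93 ± 0.15, adjusted p 4.30e-11). UNC5B, a netrin receptor, was at 33.3, 39.6 and 37.1 CPM in the control line and 13.9, 14.1 and 13.5 CPM in the HBS1L line (−1.41 ± 0.08, adjusted p 2.44e-14). Every control library of both genes held over 2 times the level of any HBS1L library. The other large falls were S100P (−1.47), the microtubule gene MAP2 (−1.39), L3MBTL2-AS1 (−1.36), the kinesin KIF21B (−1.33), FLRT1 (−1.28), TRANK1 (−1.22), LAMP3 (−1.19) and the antiviral genes OAS2 (−1.34), IFIH1 (−1.25) and OASL (−1.23). Of the exon bases of the antisense gene L3MBTL2-AS1 37.5% overlap another gene, so its reads too cannot be told apart by strand.

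Genes of the integrated stress response were lower in the untreated HBS1L line at 48 h. Of 47 tested members of the list, 40 fell, none rose and 7 were not called, beside 19.2% of all genes called lower. The median difference was −0.32, against 0.0054 over all genes, and 44 members had all 3 HBS1L libraries under all 3 control libraries. The members that fell cover amino acid import, amino acid synthesis and tRNA charging.

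ATF5, a transcription factor of the response, was at 420.4, 449.1 and 422.4 CPM in the control libraries and 277.8, 294.7 and 273.3 CPM in the HBS1L libraries (−0.61 ± 0.04, adjusted p 4.80e-13). The glycine transporter SLC6A9 was at 32.7, 35.1 and 33.5 against 19.2, 17.9 and 18.3 CPM (−0.87 ± 0.07, adjusted p 1.31e-11). WARS1, the tryptophanyl-tRNA synthetase, was at 816.3, 859.8 and 867.8 against 597.8, 597.0 and 588.6 CPM (−0.51 ± 0.04, adjusted p 2.68e-12). None of these 3 genes overlapped between the lines.

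Members named from here to the end of the paragraph were chosen after their values were seen. ALDH1L2, a mitochondrial folate enzyme, had the largest fall of the list, from 7.68 ± 0.79 to 3.39 ± 0.24 CPM (SD, n = 3; −1.18 ± 0.11, adjusted p 7.60e-10). GDF15, a secreted stress cytokine, fell from 82.8 ± 2.8 to 44.5 ± 1.7 CPM (−0.90 ± 0.08). The asparagine synthetase gene ASNS fell from 181 ± 4.7 to 126 ± 4.6 CPM (−0.52 ± 0.06, adjusted p 1.05e-08), and BCAT1, the cytosolic branched-chain aminotransferase, from 8.17 ± 0.53 to 4.57 ± 0.28 CPM (−0.84 ± 0.10, adjusted p 2.16e-08). TRIB3 (−0.39), the leucine transporter SLC7A5 (−0.43), the serine pathway enzyme PSAT1 (−0.28) and the glutathione-degrading CHAC1 (−0.34) fell as well. Several transcription factors and regulators of the response did not pass: ATF4 was at 565 ± 15 and 533 ± 21 CPM (−0.09 ± 0.06, adjusted p 0.310), ATF3 at −0.19, PPP1R15A at −0.09, CEBPB at −0.07 and DDIT3 at 0.17. EIF4EBP1 (−0.09) and ADM2 (−0.62, under 1 CPM) were the other members that were not called. With length offsets 44 of the 47 tested members were called lower and 0 higher, so most of these 7 members were called lower there.

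ATF4 binds DNA as a dimer with C/EBP proteins at an element of the form TGATGNAA. The 250 bases upstream of the start site were searched on both strands (RefSeq, GRCh38.p14, first listed start per gene). These letters were held by 6 of 37 members with a promoter sequence (16.2%), by 1.48% of the promoters of 12115 tested genes and by 3.19% of all 27305 promoters. Among called members the share was 5 of 31 (16.1%). The members were listed as genes of this response, so the share describes the list and not the difference between the lines. The stretches of ASNS (chr7:97872409-97872506, minus strand) and BCAT1 (chr12:24949102-24949179, minus strand) are shown as examples from genes that fell; the match is in capitals and each ends at the last base before the start site.
ASNS: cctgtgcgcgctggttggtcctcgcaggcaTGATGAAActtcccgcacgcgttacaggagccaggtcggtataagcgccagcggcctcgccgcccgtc
BCAT1: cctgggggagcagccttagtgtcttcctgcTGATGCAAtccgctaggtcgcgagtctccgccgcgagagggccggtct

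The list stood highest in the untreated control line at 48 h. Its mean log2(CPM + 1) was 6.89 ± 0.018 in those libraries, 6.56 ± 0.005 in the untreated PELO line and 6.51 ± 0.017 in the untreated HBS1L line (SD, n = 3). At 96 h without dox the control and HBS1L lines were at 5.62 ± 0.023 and 5.65 ± 0.061, and with dox at 48 h at 5.51 ± 0.013 and 5.53 ± 0.031. In these 2 pairs of groups the lines differed by less than the SD of the HBS1L libraries, at levels below those of both untreated lines at 48 h. At 96 h with dox the lines were at 5.60 ± 0.026 and 6.12 ± 0.10.

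**Figure D3:**
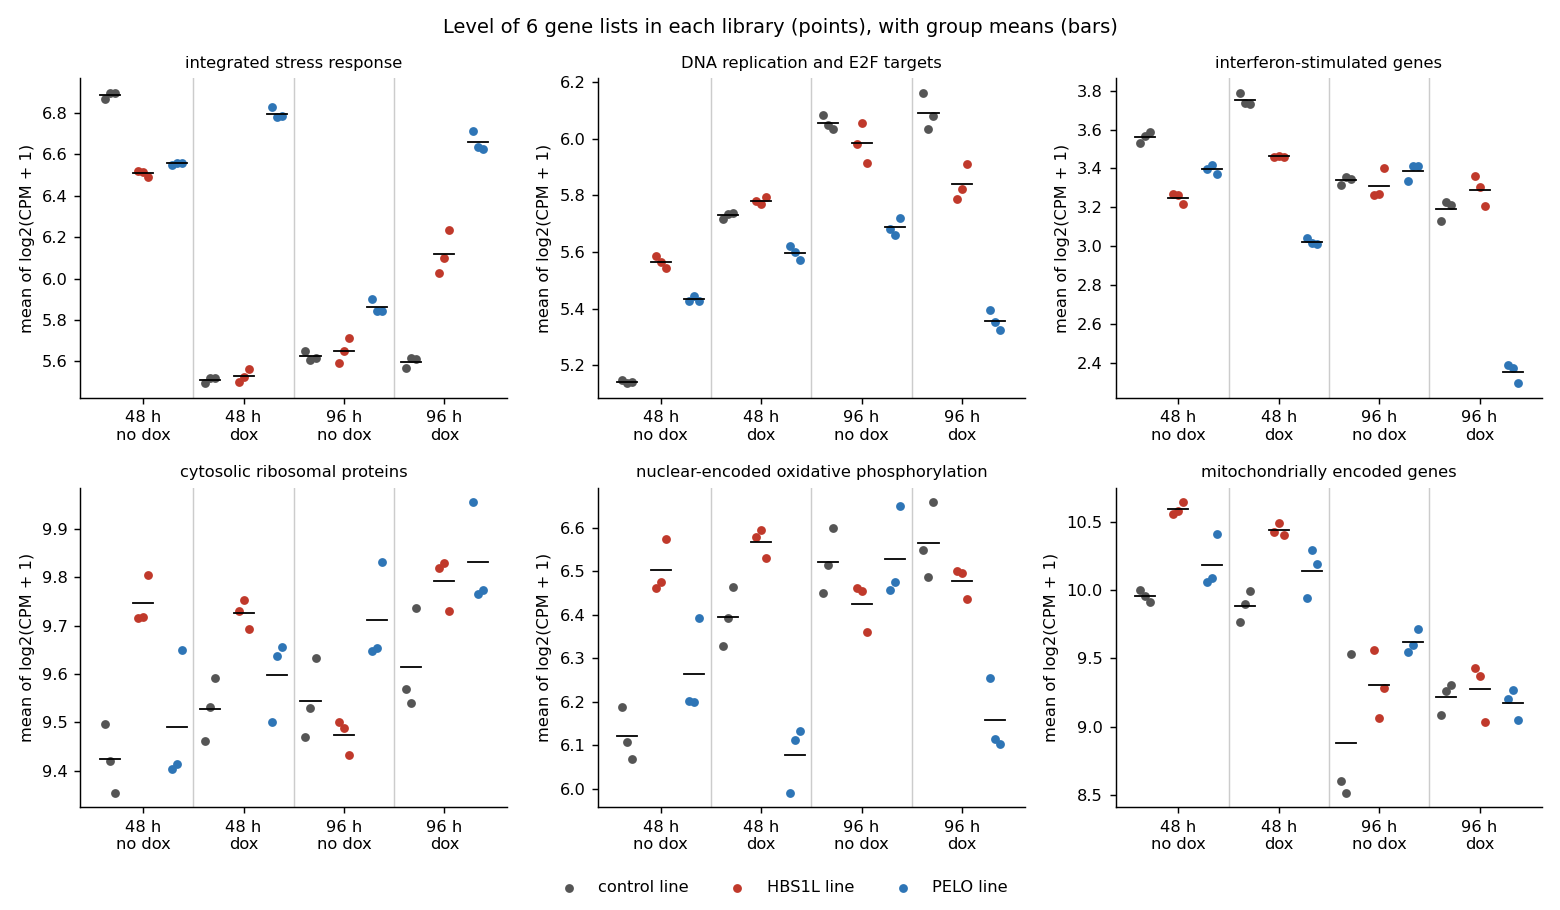
Mean log2(CPM + 1) over the members of 6 lists (vertical axes) in all 36 libraries, by time and dox, for the control line (grey), the HBS1L line (red) and the PELO line (blue). Points are libraries and bars are group means. The untreated groups at 48 h show the control line highest for the integrated stress response and the interferon list and lowest for replication, with the HBS1L line at the other end and the PELO line between them.

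DNA replication genes were higher in the untreated HBS1L line at 48 h. Of 46 tested replication and E2F target genes, 41 rose and none fell, with a median difference of 0.46, beside 18.7% of all genes called higher. PCNA, the sliding clamp of the replication fork, was at 62.6, 60.8 and 61.4 CPM in the control libraries and 117.6, 115.6 and 119.6 CPM in the HBS1L libraries (0.93 ± 0.06, adjusted p 2.44e-14). E2F1, a transcription factor of the S phase programme, was at 19.3, 19.9 and 19.9 against 31.2, 33.5 and 32.0 CPM (0.71 ± 0.05, adjusted p 4.56e-12). The ribonucleotide reductase subunit RRM2 was at 132.1, 122.2 and 129.0 against 199.7, 200.4 and 201.0 CPM (0.65 ± 0.05, adjusted p 7.43e-12). The spread within either line was small beside these gaps.

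The thymidylate synthase gene TYMS (0.60 ± 0.05) and the helicase subunit MCM7 (0.51 ± 0.05) are further examples, chosen after their values were seen. The 5 members that were not called, also named after their values were seen, were POLE (−0.03), RFC1 (0.02), POLA1 (0.06), MCM6 (0.12, adjusted p 0.0710) and CCNE2 (0.34, adjusted p 0.0681). Mitosis genes moved the same way, with 22 of 30 higher, none lower (18.7% and 19.2% over all genes) and a median of 0.27. PTTG1, which holds separase inactive until anaphase, was at 75.7, 72.0 and 68.9 against 122.0, 122.7 and 124.4 CPM (0.77 ± 0.05, adjusted p 2.11e-13). The ubiquitin ligase partner UBE2C rose by 0.71 ± 0.05 and the kinase AURKB by 0.64. Of 18 tested G1 cyclins, kinases, inhibitors and related regulators, 6 rose and 6 fell, beside 18.7% of all genes called higher and 19.2% lower. With length offsets the counts were 4 and 8. Among the members called without offsets were CDK2 (0.40) and CCND3 (0.46) upward and RB1 (−0.33), MYCL (−0.60) and CDK6 (−0.57) downward.

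The mean level of the replication list at 48 h without dox was 5.14 in the control line, 5.43 in the PELO line and 5.56 in the HBS1L line. With dox at 48 h it was 5.73 and 5.78 in the control and HBS1L lines, and at 96 h without dox 6.06 and 5.98. The untreated control line at 48 h thus held the lowest level among all 12 groups, and the list means of the 2 lines were closer in these other groups. With dox at 48 h, 13 members were higher in the HBS1L line and 3 lower, beside 9.47% and 13.6% of all genes.

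E2F proteins bind TTTCCCGC or TTTGGCGC and close variants. Of 39 replication genes with a promoter sequence, 14 held one of these 2 forms within 250 bases upstream (35.9%), against 3.02% of the tested genes' promoters and 1.96% of all promoters. Among called members the share was 11 of 35 (31.4%). The list was made to hold E2F targets, so its share does not bear on the difference between the lines. The matches of PCNA (chr20:5126623-5126711, minus strand, on the reverse strand of the gene) and E2F1 (chr20:33686386-33686435, minus strand), both genes that rose, are in capitals.
PCNA: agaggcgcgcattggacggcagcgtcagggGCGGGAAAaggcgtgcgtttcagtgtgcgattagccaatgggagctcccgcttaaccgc
E2F1: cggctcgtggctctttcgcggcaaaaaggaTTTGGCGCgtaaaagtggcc

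Interferon-stimulated genes were lower in the untreated HBS1L line at 48 h. Of 39 tested members 27 fell and 1 rose, beside 18.7% of all genes called higher and 19.2% lower, with a median difference of −0.33. IFIH1, which encodes the double-stranded RNA sensor MDA5, was at 7.67, 8.16 and 8.46 CPM in the control libraries and 3.54, 3.49 and 3.19 CPM in the HBS1L libraries (−1.25 ± 0.10, adjusted p 1.31e-11). RIGI, the sensor of 5′-triphosphate RNA, was at 8.2, 8.68 and 9.55 against 4.63, 4.62 and 4.43 CPM (−0.95 ± 0.09, adjusted p 9.50e-10). OASL was at 14.6, 15.8 and 15.6 against 6.79, 6.58 and 6.31 CPM (−1.23 ± 0.16, adjusted p 9.44e-07). Both RNA sensors were thus at about the same level in every library of a line, and neither overlapped between the lines.

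DTX3L, a ubiquitin ligase that acts with PARP9, fell by 0.42 on the log2 scale. Chosen after their values were seen, PARP14 fell from 17.6 ± 1.6 to 10.3 ± 0.87 CPM (−0.76 ± 0.10, adjusted p 5.47e-07) and the ubiquitin-like modifier ISG15 from 13.7 ± 0.79 to 9.90 ± 0.31 CPM (−0.47 ± 0.09), while IFIT1 fell by 0.25, MX1 (−0.26, adjusted p 0.202) and the kinase EIF2AK2 (−0.07, adjusted p 0.496) were not called and IFITM3 was at 148 CPM in both lines. IFITM2 was the member that rose (0.21 ± 0.06, adjusted p 0.00799), and its difference was −0.01 with length offsets. The list's mean level at 48 h without dox was 3.56 in the control line, 3.39 in the PELO line and 3.25 in the HBS1L line. With dox at 48 h 25 members were lower and none higher in the HBS1L line, beside 13.6% and 9.47% of all genes, with a median of −0.28 and list levels of 3.75 and 3.46.

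The interferon-stimulated response element holds GAAA, any 2 bases and GAAA again. These letters were found upstream of 19 of 31 members with a promoter sequence (61.3%), of 2.34% of the tested genes and of 3.07% of all promoters. Among called members the share was 13 of 21 (61.9%). Since the members were listed as interferon-stimulated, the share describes the list and not the difference between the lines. IFIH1 (chr2:162318685-162318867, minus strand) held 2 matches, on opposite strands, and PARP14 (chr3:122680780-122680838, plus strand) held 1; both genes fell, and the matches are in capitals.
IFIH1: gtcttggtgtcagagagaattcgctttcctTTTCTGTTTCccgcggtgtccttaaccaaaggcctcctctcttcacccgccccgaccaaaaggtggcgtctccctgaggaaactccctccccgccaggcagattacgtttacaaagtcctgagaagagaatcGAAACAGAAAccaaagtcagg
PARP14: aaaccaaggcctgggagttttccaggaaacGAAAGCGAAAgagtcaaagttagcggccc

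Genes for ribosomal proteins and the respiratory chain were slightly higher in the untreated HBS1L line at 48 h, nearly without exception. All 79 cytosolic ribosomal protein genes rose, with a median of 0.31, and took 7.24 ± 0.31% of the counts in the control line and 8.41 ± 0.29% in the HBS1L line (SD, n = 3). Of 77 mitochondrial ribosomal protein genes, 70 rose and 1 fell (MRPL49, −0.16), with a median of 0.30. Of 75 nuclear-encoded genes of oxidative phosphorylation, 74 rose and none fell, with a median of 0.38. These counts stand beside 18.7% of all genes called higher and 19.2% lower.

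RPL36AL, a paralog of a large-subunit protein, was at 99.2, 95.9 and 89.8 against 130.4, 140.5 and 151.4 CPM (0.57 ± 0.06, adjusted p 1.01e-08). ATP5MC1, which encodes part of the membrane ring of ATP synthase, was at 36.6, 35.6 and 33.9 against 55.4, 58.7 and 61.0 CPM (0.72 ± 0.07, adjusted p 1.83e-10). MRPS34 (0.59), NDUFB3 (0.74) and NDUFS5 (0.62) are members of the other 2 groups. These messages are short, with median longest transcripts of 1826, 1727 and 1426 bases against 2709 over all genes tested. With length offsets 58, 54 and 67 members were still higher and 0, 2 and 0 lower, and the medians were 0.19, 0.19 and 0.25. Over all genes 16.0% were higher and 16.1% lower with these offsets.

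All 15 tested members of the mitochondrially encoded list were higher, with a median of 0.64, beside 18.7% of all genes. Over the 31 genes of the mitochondrial chromosome with at least 1 CPM, 74.2% were called higher and 0% lower, with a median of 0.55. MT-ND4, a subunit of complex I, was at 2319.6, 2161.1 and 2139.9 CPM in the control libraries and 3769.9, 3715.7 and 3880.8 CPM in the HBS1L libraries (0.78 ± 0.20, adjusted p 0.00254). MT-CO1 was at 4303.4, 4388.2 and 4168.4 against 6464.5, 6584.4 and 6757.5 CPM (0.62 ± 0.19, adjusted p 0.0104). Genes with the prefix MT- together took 2.59, 2.48 and 2.43% of the counts in the control libraries and 3.57, 3.62 and 3.77% in the HBS1L libraries. At 96 h the list's median was 0.30 with no member called, control replicate 3 held 1.78% against 0.960 and 0.922% in the other 2 control libraries, and no member passed the test of 48 h against 96 h. With length offsets 7 of the 15 remained higher, beside 16.0% of all genes, and the median was 0.44. A larger mitochondrial share moves with the difference between the lines at 48 h, and its part in the other results was not tested.

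Factors that act with HBS1L moved in both directions. Of 29 ribosome rescue and quality control genes, 7 were higher, 11 lower (HBS1L included) and 11 not called, with a median of −0.07, so the shares were close to those of all genes on the higher side (18.7%) and above them on the lower side (19.2%). UFD1, a cofactor of the VCP unfoldase, rose by 0.38, VCP itself by 0.17, the cap-binding repressor EIF4E2 by 0.21, the 40S protein RACK1 by 0.22 and NEMF, which marks the stalled 60S subunit, by 0.19. GTPBP2, a GTPase related to HBS1L, was at 109.2, 118.2 and 114.9 CPM in the control libraries and 84.7, 86.7 and 77.4 CPM in the HBS1L libraries (−0.46 ± 0.06, adjusted p 8.84e-08). The deubiquitinase USP9X, which acts on the collision factor ZNF598, fell by 0.46, ZC3HAV1 by 0.40, the ribosome splitting helicase ASCC3 by 0.44, the ubiquitin ligase LTN1 by 0.33 and GIGYF2, which represses translation at collisions, by 0.42. N4BP2 had the largest fall of the list (−0.64 ± 0.10, adjusted p 5.06e-06), and KLHDC10 (−0.31), GTPBP1 (−0.16) and NPLOC4 (−0.13), the partner of UFD1, fell as well.

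ABCE1, which splits ribosomes after normal termination (0.06), the collision sensor ZNF598 (0.01) and the kinase MAP3K20 (−0.08) were not called. The same held for the ASCC3 partners ASCC2 (0.08) and TRIP4 (−0.04), the LTN1 cofactor TCF25 (−0.10), the nuclease ANKZF1 (0.11) and the ubiquitin ligases RNF14 (−0.07) and RNF25 (−0.05), as for PELO. GCN1 was at 214 ± 14 and 200 ± 4.7 CPM (−0.09, adjusted p 0.219), and with length offsets MAP3K20 and GCN1 were higher (0.12 and 0.19). EDF1, which binds collided ribosomes, was called higher (0.20) and was at −0.01 with length offsets. LTN1, RACK1, GTPBP1 and NPLOC4 also lost their calls with them, while RNF25 (−0.19) and TCF25 (−0.14) gained one. The calls of GTPBP1 (−0.14 and −0.12) and NPLOC4 (−0.10 and −0.09) were lost without HBS1L replicate 3 and without control replicate 2, and that of GTPBP1 also without HBS1L replicate 1 (−0.16) or control replicate 3 (−0.15).

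Of 22 tested SKI and exosome genes, 11 were higher and 4 lower, beside 18.7% and 19.2% of all genes, so that the share of lower members was near that of all genes. HBS1L is again among the 4, since its short isoform links SKI and exosome. The exosome core subunit EXOSC9 was at 23.2, 22.1 and 23.2 CPM in the control libraries and 31.2, 28.9 and 30.3 CPM in the HBS1L libraries (0.40 ± 0.05, adjusted p 2.93e-08). EXOSC3 was at 17.8, 16.9 and 17.3 against 23.7, 23.4 and 24.0 CPM (0.45 ± 0.06), and EXOSC1, EXOSC2, EXOSC4, EXOSC5 and EXOSC7 rose by 0.25 to 0.47. Among the SKI subunits the scaffold SKIC3 fell by 0.27, SKIC8 rose by 0.24 and the helicase SKIC2 was not called (0.09, adjusted p 0.098). The 5′ exonuclease XRN1 fell from 44.7 ± 2.5 to 31.7 ± 0.60 CPM (−0.50 ± 0.09). The exosome cofactors MPHOSPH6 (0.45) and C1D (0.42) and the SKI-associated AVEN (0.30) rose, and EXOSC6 (−0.05), EXOSC8 (0.12), EXOSC10 (−0.0089), DIS3L (−0.09), DIS3L2 (−0.01) and the helicase MTREX (−0.08) were not called. With length offsets SKIC3 and EXOSC5 lost their calls, and the nuclease DIS3 (−0.19) was called in the opposite direction (0.11, adjusted p 0.0323). The call of DIS3 was lost without HBS1L replicate 3 (−0.16) and without control replicate 3 (−0.14).

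Other stress lists differed in direction, and their counts stand beside 18.7% of all genes called higher and 19.2% lower. Of 25 genes of the endoplasmic reticulum unfolded protein response, 8 rose and 11 fell: the chaperone cofactor SDF2L1 (0.80), MANF (0.50) and CRELD2 (0.40) were higher, while SEL1L (−0.85), EDEM1 (−0.53) and ATF6 (−0.39) were lower. Of 22 heat shock genes 14 rose and none fell. HSP90AA1, the inducible cytosolic HSP90, was at 2377.5, 2200.4 and 2272.1 against 3580.1, 3502.5 and 3706.0 CPM (0.66 ± 0.04, adjusted p 1.39e-13), and HSPE1 and HSPB1 rose by 0.81 and 0.52. Among 32 NRF2 targets 11 rose and 11 fell, with the peroxidase PRDX1 (0.62) and the reductase AKR1C1 (0.66) upward and SLC7A11, the cystine transporter that the stress response list also holds, downward from 77.8, 82.0 and 89.8 to 41.7, 37.7 and 38.5 CPM (−1.08 ± 0.08, adjusted p 3.72e-11).

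Of 18 BCL2 family genes 10 fell and 3 rose, beside 19.2% and 18.7% of all genes, with HRK (−0.76) and BBC3 (−0.38) among the former and BID (0.34) among the latter. In the autophagy and lysosome list 15 of 38 fell and 5 rose, among them MAP1LC3B (−0.36) and the cargo receptor SQSTM1 (−0.28) downward. The shares of members that rose in these and in the next list were near or under that of all genes. NF-kB targets split into 4 higher, including CXCL8 (0.50) and CXCL1 (0.34), and 10 lower of 26, including IRF1 (−0.35).

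Of 25 RAS-MAPK output genes 14 were lower and 4 higher, beside 19.2% and 18.7% of all genes. The list's median was −0.21, and with length offsets it was −0.10 with 11 lower and 1 higher. Examples were ETV5 (−0.38) and SPRED2 (−0.49) downward and FOSL1 (0.30) upward. YAP and TEAD targets (5 higher and 11 lower of 26, and 5 and 8 with length offsets) included the matricellular CCN1 (0.44) and the membrane repair gene MYOF (−0.55). Immediate early genes gave 7 higher and 10 lower of 30, and hypoxia and glycolysis genes 14 higher and 8 lower of 38, with ENO1 (0.38) and PGAM1 (0.46) upward and VEGFA (−0.49) and PDK1 (−0.41) downward. The immediate early genes that rose and the hypoxia genes that fell were close to the shares over all genes. Cholesterol synthesis gave 11 higher, such as HSD17B7 (0.70) and FDPS (0.42), and 4 lower of 28, such as SCD (−0.37). In the matrix and adhesion list 16 of 57 fell and 4 rose, with a median of −0.11. Its median longest transcript was 5689 bases, and with length offsets 13 fell and 5 rose, with a median of 0.03. The hemidesmosome integrin ITGB4 was at 241.6, 280.1 and 262.9 against 140.3, 138.7 and 127.2 CPM (−0.95 ± 0.07, adjusted p 6.68e-13).

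RNA handling genes were higher in part, beside 18.7% of all genes called higher and 19.2% lower. Of 30 SR and hnRNP splicing factors 21 rose and none fell, led by SRSF4, HNRNPA2B1 and SRSF7 (0.40 to 0.41). Translation factors gave 27 higher and 6 lower of 47, ribosome biogenesis 19 and 3 of 37, small nucleolar RNA host genes 11 and 1 of 21, nonsense-mediated decay factors 4 and 7 of 17, and MHC class I presentation 2 and 5 of 18. For the host genes the length offsets left 7 higher and 3 lower and a median of 0.07 in place of 0.17. For the decay factors they left 3 higher and 5 lower and a median of 0.02 in place of −0.04. The kinase SMG1, which starts nonsense-mediated decay, was at 183.5, 223.8 and 232.0 against 133.8, 131.0 and 125.3 CPM (−0.71 ± 0.12, adjusted p 5.61e-05). Of 54 histone genes 18 rose and 7 fell, with H1-2 (0.77) higher and H2BC21 (−0.64) lower. Their median longest transcript was 582 bases, and with length offsets 9 rose and 7 fell, with a median of 0.15 in place of 0.37. Most histone messages lack a polyA tail, so in polyA RNA these values cover only the polyadenylated part.

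Markers of cell types moved in both directions by member, while the sums of their abundant genes were higher in the HBS1L line for all but the endothelial list, and the part of this in other results was not tested. The summed epithelial markers lay between 2996 and 3283 CPM in the control libraries and 3911 and 3972 CPM in the HBS1L libraries, carried by KRT8, KRT18 and KRT19, and the mesenchymal sum between 7538 and 7885 and between 8732 and 8892 CPM, carried by VIM. By member, beside 18.7% of all genes called higher and 19.2% lower, 3 of 11 epithelial markers were higher and 3 lower, and 3 and 2 of 11 mesenchymal ones. Keratins gave 3 and 3 of 12, with the hair keratins KRT86 (−0.95) and KRT81 (−0.59) lower. Among 4 tested leukocyte markers CD68 was higher (0.41), and among 4 endothelial ones CDH5 was lower (35.3 and 23.3 CPM). The leukocyte sum was 26.0 to 27.1 and 32.1 to 34.6 CPM, and the endothelial sum 91.6 to 105 and 83.7 to 92.6 CPM. Of 16 tested genes around HBS1L on chromosome 6, HBS1L included, 3 rose (MTFR2, RPS12 and TBPL1) and 1 fell (HBS1L itself). These counts were near or under the shares over all genes. With length offsets 5 were higher and 1 lower, beside 16.0% and 16.1% of all genes, and HBS1L was not called. Of 11 listed chromosome 9p21 genes 0 passed the filter on counts.

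**Figure D4:**
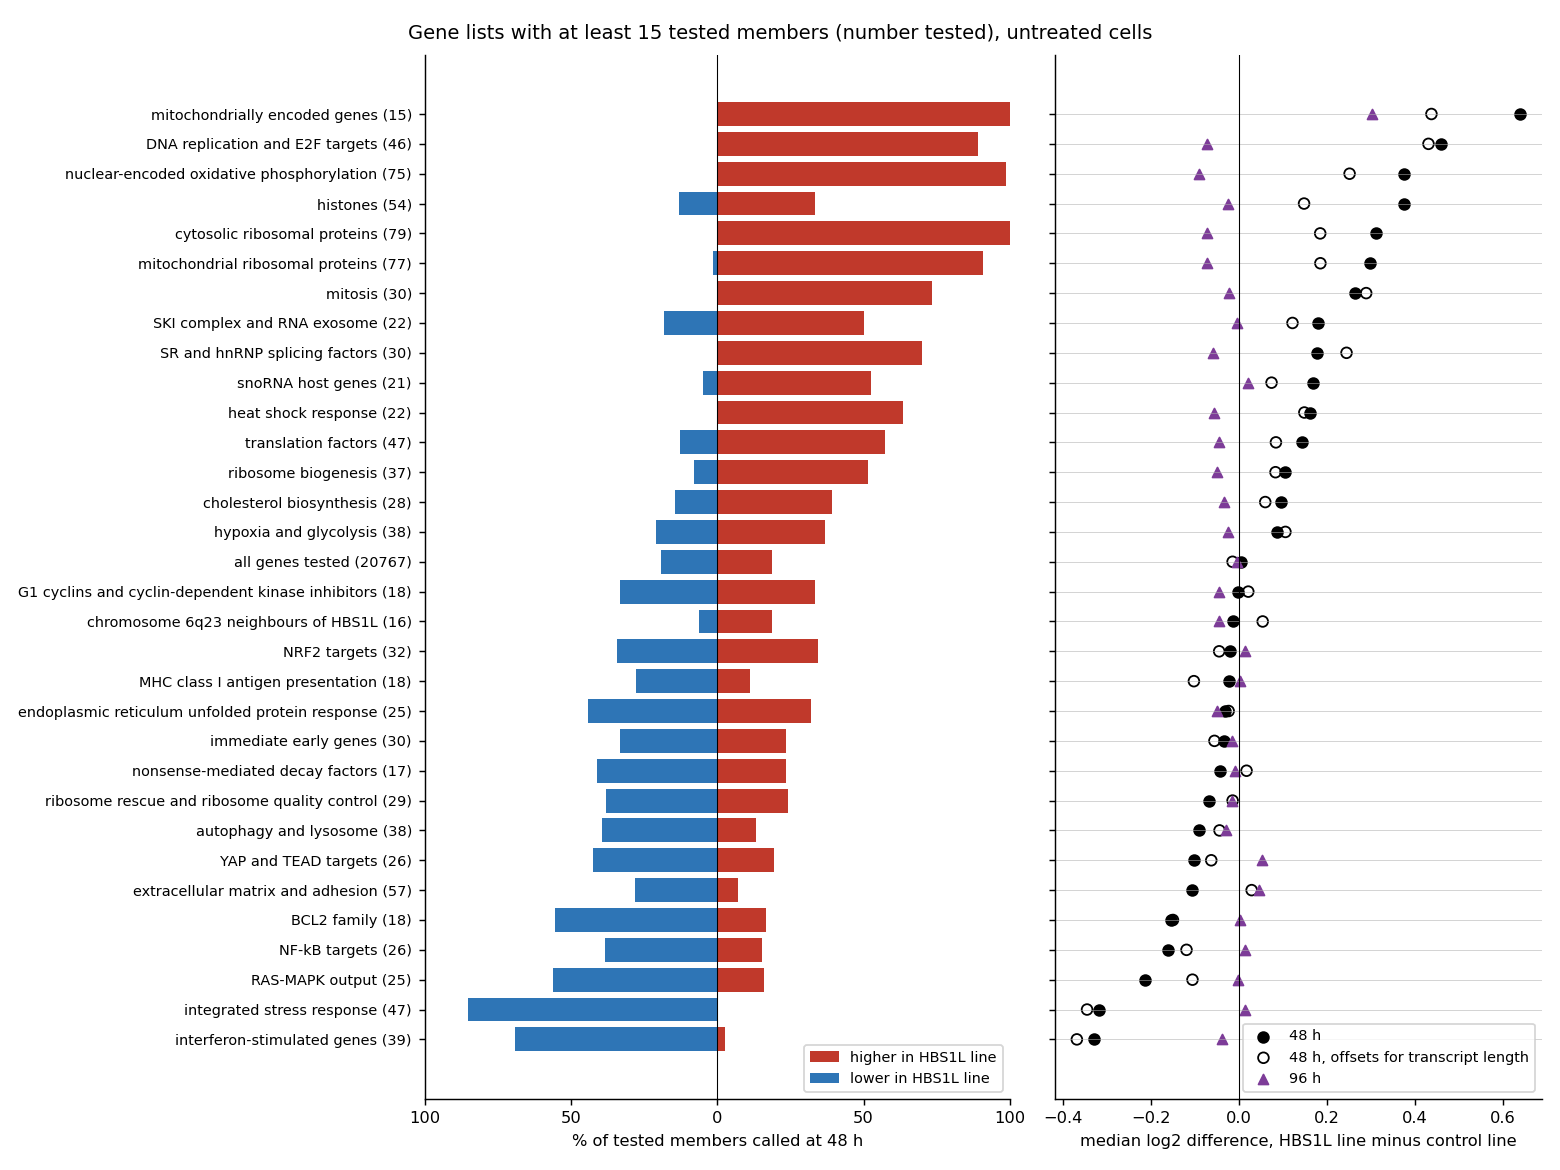
Left, share of the tested members of each reported list with at least 15 of them called higher (red) or lower (blue) in the HBS1L line at 48 h without dox in percent, with all genes tested as a row of their own. Right, median log2 difference of each list at 48 h (filled circles), at 48 h with offsets for transcript length (open circles) and at 96 h (triangles). At 48 h the interferon and integrated stress response lists have the lowest medians (−0.33 and −0.32) and the mitochondrially encoded and replication lists the highest (0.64 and 0.46). At 96 h the mitochondrially encoded list has the median farthest from 0 (0.30).

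The differences at 48 h were rarely present at 96 h, in libraries that the first comparison does not use. The genes called higher at 48 h had a median of 0.30 at 48 h and −0.05 at 96 h, and the genes called lower had −0.32 and 0.02. Of the former 2902 (74.7%) and of the latter 2718 (68.2%) also passed the test of the change between the times, in the same direction, beside 15.2% and 14.7% of all genes. These shares are from the fit without length offsets. The integrated stress response, replication and interferon lists had 0 members called at 96 h, with medians of 0.02, −0.07 and −0.04. For the change between the times 37 members of the first list were lower, 42 of the second higher, and 20 of the third lower and 1 higher, beside 15.2% of all genes higher and 14.7% lower. ATF5 at 96 h was at 130.9, 131.7 and 131.9 CPM in the control libraries and 120.4, 124.5 and 125.5 CPM in the HBS1L libraries, and PCNA at 186.8, 188.1 and 195.2 against 186.6, 192.7 and 166.2 CPM.

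A small set of genes differed between the untreated lines at both times. Of the 28 genes called at 96 h, 19 were called in the same direction at 48 h, 11 higher and 8 lower, HBS1L among the latter. The 11 were 61.1% of the 18 higher at 96 h and 0.283% of those higher at 48 h. The 8 were 80.0% of the 10 lower at 96 h and 0.201% of those lower at 48 h. Over all genes 18.7% were called higher and 19.2% lower at 48 h, and 0.0867% and 0.0482% at 96 h. Of the genes called at 96 h, HBS1L and MAP2 fall under the rules for naming genes, and all others named were chosen after their values were seen. CALB2, the calcium-binding protein calretinin, was at 54.1, 56.4 and 53.7 CPM in the control libraries and 34.0, 33.6 and 31.9 CPM in the HBS1L libraries at 48 h (−0.72 ± 0.06, adjusted p 8.34e-12). At 96 h it was at 55.9, 55.8 and 58.6 against 33.5, 32.4 and 31.6 CPM (−0.80 ± 0.06, adjusted p 8.23e-12). The 2 times gave nearly the same levels in each line, and with dox at 48 h the difference was −0.74.

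LAMA4, a laminin chain of basement membranes, was at 2.21, 1.92 and 2.22 against 3.98, 3.99 and 3.61 CPM at 48 h (0.87 ± 0.13) and at 1.62, 1.35 and 1.16 against 2.74, 2.96 and 2.72 CPM at 96 h (1.02 ± 0.14, adjusted p 9.88e-05). SPINK5, a serine protease inhibitor, was at 0.113, 0.176 and 0.185 against 0.687, 0.653 and 0.824 CPM at 48 h (2.18 ± 0.32) and at 0.175, 0.119 and 0.0876 against 0.817, 0.669 and 0.852 CPM at 96 h (2.58 ± 0.33, adjusted p 1.57e-05). In the untreated PELO line SPINK5 was at 0.107, 0.0523 and 0.0894 CPM, so the HBS1L line stood apart from both other lines. MYBPH (1.40 and 0.94), IVNS1ABP (0.35 and 0.22), FSTL1 (0.27 and 0.25), VEPH1 (0.32 and 0.26), PDE4DIP (0.36 and 0.32), SPOCD1 (0.35 and 0.32), the antisense ROR1-AS1 (0.36 and 0.31, strand of counting not given) and MT-TP (0.56 and 0.91) were higher at 48 and 96 h.

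FZD4, a Wnt receptor, fell by 0.93 at 48 h and by 0.36 at 96 h, MAP2 by 1.39 and 0.65, C15orf48 by 0.76 and 0.87 and CRNN by 1.32 and 2.01 on the log2 scale. CRNN was at 0.334 ± 0.077 CPM in the HBS1L line, 0.840 ± 0.14 CPM in the control line and 0.0174 CPM in the PELO line at 48 h, so the HBS1L line stood between the other 2. NRAP, a muscle gene, had 47 counts over the 3 HBS1L libraries and 0 over the 3 control libraries at 48 h, at least 14.5-fold higher against a floor of 3 counts over the group, and 36 against 1 at 96 h (40.9-fold, exact 95% counting interval 6.89 to 1661). KCNS1 had 1 and 32 counts at 48 h and 2 and 32 at 96 h, 34.5-fold (5.76 to 1403) and 14.1-fold (3.59 to 121) lower, and the unnamed gene ENSG00000268460 1 and 31 at 48 h and 0 and 26 at 96 h. These intervals and floors cover counting error only.

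Of the other genes called at 96 h, 8 were not called at 48 h. CLDN1, a tight junction claudin, was at 104.7, 109.9 and 110.6 against 106.4, 102.0 and 99.7 CPM at 48 h (−0.08, adjusted p 0.186) and at 45.2, 44.2 and 45.7 against 55.1, 58.6 and 62.1 CPM at 96 h (0.38 ± 0.05, adjusted p 1.14e-05). The change between the times passed the test for CLDN1 (−0.46 ± 0.07, adjusted p 2.82e-06). DLC1 was the gene with opposite calls (−0.40 at 48 h and 0.35 at 96 h).

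The untreated PELO line gives a second reference at 48 h. Against it, the HBS1L line differed at 6176 genes (29.7%), 2843 of them higher (13.7%) and 3333 lower (16.0%). Without PELO replicate 2 the count was 3735, and with length offsets it was 4001. This comparison shares the HBS1L libraries with the first, so the values are set side by side only. The ribosomal protein list was 76 higher and 0 lower of 79 against the PELO line, with a median of 0.26 (0.31 against the control line), and the oxidative phosphorylation list 67 higher and 1 lower of 75, with 0.26 (0.38). For replication the counts were 24 and 1 of 46, with 0.18 (0.46), and for the interferon list 0 and 14 of 39, with −0.18 (−0.33). The integrated stress response had 3 higher and 10 lower of 47 and a median of −0.0085 (−0.32), so that on this list the HBS1L line lay close to the PELO line. ATF5 was at 270.4, 273.6 and 285.7 CPM in the untreated PELO line, within the range of the HBS1L libraries but for its lowest value.

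With dox at 48 h, in libraries that the first comparison does not use, the HBS1L line differed from the control line at 4791 genes (23.1%), 1967 of them higher (9.47%) and 2824 lower (13.6%). That count fell to 2102 without control replicate 1 and to 2740 without HBS1L replicate 2, so the overlap shares that follow hold for the full set of libraries. There the nuclease is induced, so it is no second baseline. Of the genes higher without dox, 1468 were also higher with it (37.8% of the untreated calls and 74.6% of the dox calls), and of the genes lower, 2178 (54.6% and 77.1%). Over all genes 18.7% were called higher and 19.2% lower without dox. Both differences moved with transcript length (Spearman −0.57 without and −0.52 with dox over protein-coding genes of at least 1 CPM), and its part in the overlap was not tested. By contrast 20 and 16 genes had opposite calls. The integrated stress response had 6 higher and 5 lower members with dox, with a median of 0.02. The ribosomal protein list had 50 and 0, and the mitochondrially encoded list 9 and 0.

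The difference between the untreated lines at 48 h moved with transcript length. Over 12063 protein-coding genes of at least 1 CPM, the Spearman correlation of the log2 difference with the length of the longest transcript was −0.57 across genes, which share the libraries and are not independent. Genes with transcripts under 1000 bases had a median of 0.29, with 67.4% called higher and 6.91% lower. Genes with transcripts over 8000 bases had a median of −0.31, with 4.31% higher and 66.5% lower. Against the PELO line the correlation was −0.61, with dox −0.52, and at 96 h 0.38, where the same classes had medians of −0.08 and 0.07.

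With offsets that remove this trend within each library the correlation was −0.06, and 6660 genes (32.1%) were called, 3313 higher (16.0%) and 3347 lower (16.1%). Of the 7874 calls 5089 (64.6%) were made again in the same direction and 29 in the opposite one. The stress response list then had 44 lower and 0 higher (median −0.34), the replication list 44 higher and 0 lower (0.43), and the interferon list 26 lower and 1 higher (−0.37). The medians of these 3 lists stayed close to those without offsets, at −0.32, 0.46 and −0.33. Whether the trend comes from the RNA of the cultures or from the libraries was not tested.

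**Figure D5:**
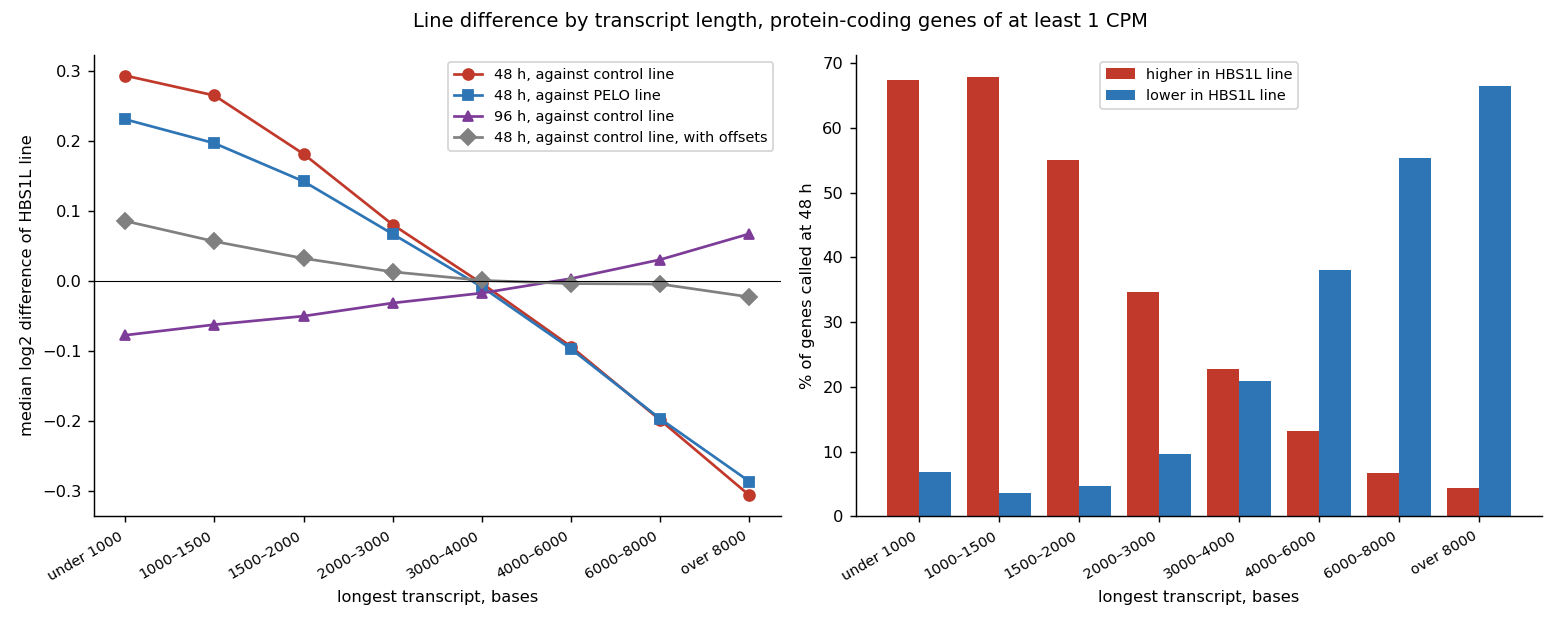
Left, median log2 difference of the HBS1L line (vertical axis) in classes of transcript length (horizontal axis, bases) for protein-coding genes of at least 1 CPM, at 48 h against the control line with and without offsets and against the PELO line, and at 96 h. Right, percentage of the genes in each class called higher or lower at 48 h. At 48 h the medians run from 0.29 in the shortest class to −0.31 in the longest, at 96 h from −0.08 to 0.07, and with offsets at 48 h from 0.09 to −0.02.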

How the data were processed

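RNA was measured in 36 libraries, 3 per group. The authors' deposited table of 61544 genes holds estimated counts: 45.6% of its values above 0 are not whole. The submitters' processing notes name DRAGEN, featureCounts, Subread, edgeR and limma and build GRCh38.p13, with no versions or roles. The authors' deposited log2 CPM table (17138 genes) equals log2(count + 0.5) plus a constant per library, to within 5.2e-14, and served only as an alternative.

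Counts were rounded. Genes were kept by filterByExpr (minimum count 10, total 15), which left 20767 genes and at least 99.9% of each library, and tested with edgeR 4.0.16 (TMM, robust quasi-likelihood fit, R 4.3.3) with 1 mean per group over all 36 libraries. P-values were adjusted over all genes tested, with a threshold of 0.05. Alternatives used DESeq2 1.42.0 and limma 3.58.1. Length offsets (60 length bins per library, GENCODE 29 transcripts) were added after the data were seen. The fit was tested on simulated data.

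Named genes were HBS1L and PELO, the 12 largest rises and falls, up to 3 called members per list and direction with the smallest adjusted p, all rescue, SKI and exosome genes, up to 5 abundant genes each way with at least 1.5-fold change, and the 4 strongest changes each way between the times. The rule for genes on in only 1 line (at least 1 CPM against at most 3 counts) found 0. Members and lists were chosen with earlier results of these data known. Replicates differed by more than sampling noise. Same-numbered libraries of the 2 lines did not deviate together (correlations −0.01, 0.23 and −0.07), so no pairing was used. The results of 1 gene list and 1 further gene are not reported here.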

Additional observations from a re-analysis of the deposited data

Results flagged for a closer look

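The difference between the 2 untreated lines was not the same at both times. For 6193 genes the difference at 48 h minus that at 96 h passed edgeR's test (adjusted p under 0.05), 3149 of them positive and 3044 negative. With length offsets 4686 genes passed. The 4 genes with the smallest adjusted p in each direction were the following, as log2 values of 48 h minus 96 h. PCNA (1.00), E2F1 (0.84) and PTTG1 (0.84), which serve replication and mitosis, and the chaperone HSP90AA1 (0.66) were higher in the HBS1L line at 48 h, and at 96 h their differences were −0.06, −0.13, −0.07 and −0.0032, none of them called. UNC5B (−1.63), SLFN5 (−1.19), the hexosamine enzyme GFPT1 (−0.82) and the kinase MKNK2 (−0.52) were lower at 48 h, and at 96 h their differences were 0.21, 0.20, 0.10 and 0.08, none of them called. The control line's own level of PCNA was 61.6 ± 0.96 CPM at 48 h and 190 ± 4.5 CPM at 96 h (SD, n = 3). Its level of UNC5B was 36.7 ± 3.2 and 5.30 ± 0.54 CPM. Time and any batch that follows the library numbers cannot be told apart, and the labels name no batch.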

How the results depend on the processing

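At 48 h without dox the count of 7874 calls was 7507 with DESeq2, 7852 with RLE scaling, 6935 without the filter on low counts, 7531 with limma on the authors' log2 values and 8136 when only the 6 libraries entered the fit. Between 80.0% and 98.8% of the calls were made again under these settings and when 1 library was left out. Leaving out 1 library gave 6408 (without control replicate 3) to 7704 calls. With the replicate number as a block, although the numbers do not pair the libraries, 7869 genes were called.

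The small count at 96 h (28) moved most: 46 with DESeq2, 95 without the filter, 17 when only the compared groups were fitted, and 12 to 42 when 1 library was left out (17 without HBS1L replicate 1, 12 without HBS1L replicate 3, 13 without control replicate 2). Against the PELO line the 6176 calls became 4001 with length offsets and 3735 (without PELO replicate 2) to 6818 when 1 library was left out. With dox the 4791 calls ranged from 2102 (without control replicate 1) to 4644 when 1 library was left out, with 2740 without HBS1L replicate 2, and came to 6400 when only the compared libraries were fitted. For the change between the times leaving out 1 library gave 4934 to 6180 calls, of 6193. Length offsets gave 4686, with 2539 higher and 2147 lower.

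Among 293 named genes at 48 h, length offsets left 235 on their side of the threshold and direction. With an unchanged sign 35 lost their call and 12 gained one. The sign turned for 11: EDF1 (−0.014), MAP3K20 (0.12), GCN1 (0.19), DIS3 (0.11), BAX (−0.013), TRIAP1 (−0.039), IFITM2 (−0.012), ACACA (0.035), BAD (−0.0054), POLE (0.22) and EIF2AK2 (0.20). No other setting turned a sign. The depth of the libraries limits genes under about 1 CPM, such as ADM2 and NRAP, most.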
